A study of Homo sapiens with 24 samples.

Results

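The DEAD and DEAH box RNA helicases form a family of enzymes that use ATP to unwind or remodel RNA and its complexes with protein. They are named for the amino acids of a conserved motif and act in ribosome assembly, splicing, export, translation and decay of RNA. Members were all protein-coding RefSeq genes on chromosomes 1 to 22 and X whose symbol is DDX or DHX followed by a number, with or without a letter. The rule found 53 of 19974 genes, 37 named DDX and 16 named DHX. It used no measured value, but the family was chosen with earlier results of these data known. Myc is a transcription factor that binds DNA with its partner Max, best at the E-box CACGTG. Genes of ribosome assembly and RNA processing are among its known targets.

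The assay was CUT&Tag. An antibody bound to Myc recruits a transposase, which inserts sequencing adapters into the DNA close by. MIA PaCa-2 cells, a long-established line from a human pancreatic carcinoma, were used with a tet-on construct that expresses MED30 when doxycycline is given. MED30 is a subunit of Mediator, which links transcription factors to RNA polymerase II. One group had doxycycline and is titled as day 5, and the other had none. Each was 1 library, so a difference between them compares 2 libraries and has no replicate check. Both groups carry the same construct, and the labels do not say whether the line is 1 clone. The titles give 5 days, which was followed here, while the protocol common to all samples gives 2 days. The other 22 of the 24 samples, among them IgG controls and a Myc library at day 1, were not analysed here. Peaks that an IgG library might share were therefore not taken out, and some Myc peaks can be background. No measure of RNA or protein was analysed here, so how much MED30 or any helicase was made is not known from these values.

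The day 5 list held 6718 peaks on these chromosomes and the list without doxycycline 3468. A gene was counted when a peak came within 1 kb of either end of its span. Strength is given as the number of fragments over a peak's summit, recovered from the deposited values, with an exact Poisson 95% interval that covers counting error only. The median peak had 12 fragments at day 5 and 11 without doxycycline. Total reads of the libraries are not in the lists. Where a gene has no listed peak, nothing there passed the authors' threshold, and weaker binding is not excluded.

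Most helicase genes carried a Myc peak at day 5. These were 35 of 53 (66.0%, exact binomial interval 51.7 to 78.5), beside 27.5% of all protein-coding genes. Without doxycycline 15 of 53 had one (28.3%, 16.8 to 42.3), beside 14.5% of all genes. The same 15 genes were in both lists, against 12.9% of all genes. Peaks at day 5 only were found at 20 members (37.7%), with 14.5% of all genes in that class. No member had a peak only without doxycycline (0 of 53, which allows a share of up to 6.72% by the exact interval), where all genes gave 1.57%. The remaining 18 had no peak in either library, as did 71% of all genes. By name, 23 of 37 DDX genes and 12 of 16 DHX genes had a peak at day 5. Without doxycycline the numbers were 12 DDX and 3 DHX genes. The day 5 list is longer, and with equal numbers of peaks 20 members had a peak at day 5 (15.8% of all genes) and 15 without doxycycline. In that setting 9 members were listed only at day 5 and 4 only without doxycycline, against 5.59% and 4.32% of all genes. The 4 were DDX27, DDX47, DHX29 and DHX38.

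**Figure D1:**
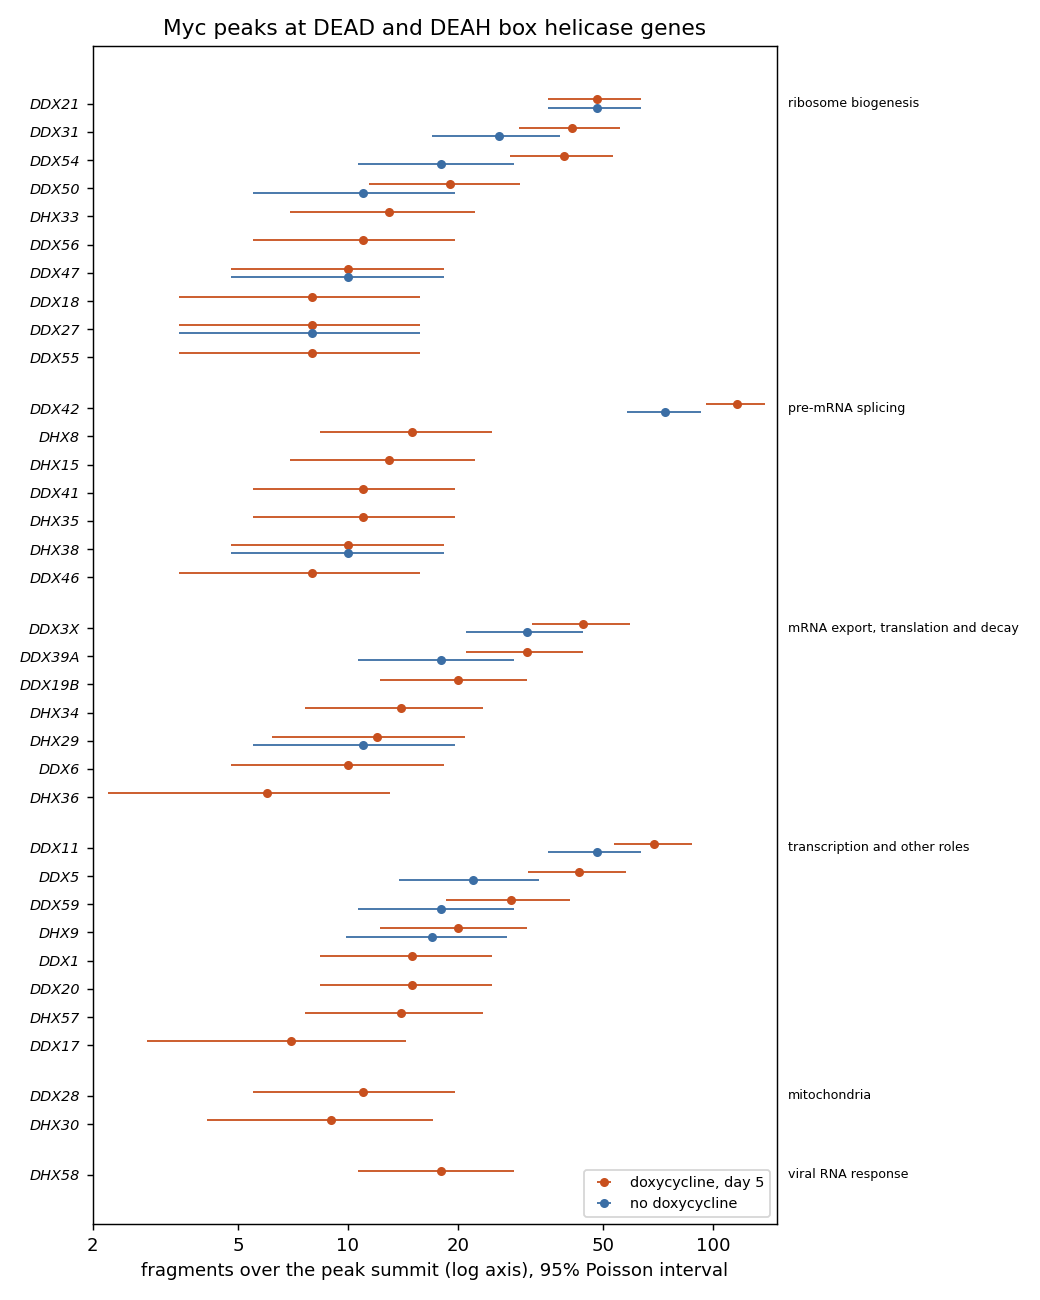
Fragments over the Myc summit (log axis) for the 35 helicase genes with a peak, by role, at day 5 of doxycycline (upper points) and without doxycycline (lower points); bars are exact Poisson 95% intervals. DDX42 stands highest in both libraries, with 116 and 74 fragments, and 20 genes have a day 5 point only.

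To show the DNA at or beside these peaks, the 250 bases before the gene start are printed for 6 members. The start is as RefSeq gives it on GRCh38.p14 (the hg38 assembly). DDX42 has the strongest member peak, DDX31, DDX54 and DDX5 have both a peak and an E-box, DDX21 has a strong peak and the variant CACGCG, and DHX40 has both motifs and no peak. Each runs 5′ to 3′ on the gene's strand up to the base before the start, and capitals mark CACGTG and CACGCG.
DDX42 (chr17:63773920-63774169, plus strand): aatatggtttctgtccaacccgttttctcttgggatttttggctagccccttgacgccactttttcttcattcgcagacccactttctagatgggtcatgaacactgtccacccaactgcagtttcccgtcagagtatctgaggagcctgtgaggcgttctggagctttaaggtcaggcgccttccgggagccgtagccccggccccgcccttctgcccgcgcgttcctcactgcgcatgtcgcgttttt
DDX31 (chr9:132669984-132670233, minus strand): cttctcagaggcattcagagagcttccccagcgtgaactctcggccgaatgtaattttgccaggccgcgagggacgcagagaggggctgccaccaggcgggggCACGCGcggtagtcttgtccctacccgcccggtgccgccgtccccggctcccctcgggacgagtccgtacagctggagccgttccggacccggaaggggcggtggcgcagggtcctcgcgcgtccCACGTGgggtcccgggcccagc
DDX54 (chr12:113185479-113185728, minus strand): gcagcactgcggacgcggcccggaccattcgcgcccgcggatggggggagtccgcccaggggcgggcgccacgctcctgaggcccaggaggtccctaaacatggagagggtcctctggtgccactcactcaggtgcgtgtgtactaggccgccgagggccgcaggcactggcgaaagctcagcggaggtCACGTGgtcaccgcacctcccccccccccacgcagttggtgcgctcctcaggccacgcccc
DDX5 (chr17:64506639-64506888, minus strand): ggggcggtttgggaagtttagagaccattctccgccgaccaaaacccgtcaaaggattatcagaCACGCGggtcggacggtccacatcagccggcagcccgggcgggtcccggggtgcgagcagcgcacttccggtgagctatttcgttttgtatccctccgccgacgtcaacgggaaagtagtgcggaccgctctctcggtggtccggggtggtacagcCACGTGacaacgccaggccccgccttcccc
DDX21 (chr10:68955920-68956169, plus strand): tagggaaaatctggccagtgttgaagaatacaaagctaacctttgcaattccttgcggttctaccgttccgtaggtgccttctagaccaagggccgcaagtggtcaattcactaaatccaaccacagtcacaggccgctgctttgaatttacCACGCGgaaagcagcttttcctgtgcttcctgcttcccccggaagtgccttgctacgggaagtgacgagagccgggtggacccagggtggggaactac
DHX40 (chr17:59565360-59565609, plus strand): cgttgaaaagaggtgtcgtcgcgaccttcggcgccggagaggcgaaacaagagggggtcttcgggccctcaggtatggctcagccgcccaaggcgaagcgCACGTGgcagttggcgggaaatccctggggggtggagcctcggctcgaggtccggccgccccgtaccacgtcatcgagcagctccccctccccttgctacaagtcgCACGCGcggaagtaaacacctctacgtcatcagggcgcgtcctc

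Motifs were counted in windows of 250 bases before to 50 after the start, which RefSeq gave for 48 of the 53 members. DDX18, DDX49, DDX52, DHX33 and DHX58 have no entry. Letters searched were CACGTG, which reads the same on both strands, CACGCG or CGCGTG, and CATGTG or CACATG. The E-box CACGTG was in 8 of 48 member windows (16.7%, 7.48 to 30.2), beside 8.87% of 15812 windows of protein-coding genes. The variant CACGCG was in 13 of 48 (27.1%, 15.3 to 41.8), beside 14.8%, and CATGTG in 2, beside 8.43%. No hits overlapped within a member window. Over all genes, CACGTG was in 13.2% of windows of genes with a day 5 peak and in 7.05% of those without one. Among members it was in 5 of 32 with a day 5 peak and in 3 of 16 without. CACGCG was in 10 of those 32 and in 3 of those 16, beside 21.4% and 12.0% over all genes. The 32 include DDX19B and DHX8, whose day 5 summits lay outside the window, 5271 bp upstream and 62188 bp downstream of the start. DDX19B is among the 10 with CACGCG. Without doxycycline CACGTG was in 3 of 15 members with a peak and 5 of 33 without one (15.3% and 7.68% over all genes), and CACGCG in 7 of 15 and 6 of 33 (22.2% and 13.4%). These member counts are small and their intervals overlap, least for CACGCG without doxycycline (21.3 to 73.4% with a peak and 6.98 to 35.5% without one). The differences were not tested. Median GC content of the windows was 63% for members with a day 5 peak and 56.3% for members without, and its part in the counts was not tested.

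The E-box began 22 bases before the start in DDX31, 30 in DDX5 and 61 in DDX54, which all had a peak in both libraries. In DDX31 and DDX5 it lay under the peak of both libraries. In DDX54 it lay under the day 5 peak (chr12:113184706-113185859) only. The DDX54 peak without doxycycline ended at base 113185515, so the E-box and most of the printed bases lay outside it. DHX35 has 2 of them, at 184 and 132 bases, and DHX34 has 1 at 250 bases, and both had a peak only at day 5. DHX40 (150 bases), DHX32 (115 bases) and DHX37 (41 bases after the start) hold CACGTG and had no peak in either library. DDX42 has neither CACGTG nor CACGCG in its window. Its peak covers all of the printed bases in both libraries. A letter match is a description and not a binding site, and a window without a match says nothing of sites elsewhere under the peak.

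Among the 16 helicases of ribosome biogenesis, 10 had a Myc peak at day 5 (62.5%, 35.4 to 84.8), beside 27.5% of all genes. Without doxycycline 6 had one (37.5%, 15.2 to 64.6), beside 14.5%. These helicases act in the nucleolus, where ribosomal RNA is made and cut. DDX21, which binds ribosomal RNA and its small nucleolar RNAs, had 48 fragments at day 5 and 48 without doxycycline (35.4 to 63.6 each). Its peak ranked 131 of 6718 at day 5 and 48 of 3468 without doxycycline. Its paralog DDX50 is the next gene on chromosome 10, 9322 bp away, and had 19 fragments (11.4 to 29.7) at day 5 and 11 (5.49 to 19.7) without doxycycline. Each of the 2 genes had a peak of its own at its start in both libraries. DDX31, a nucleolar helicase, had 41 (29.4 to 55.6) and 26 (17.0 to 38.1) fragments at day 5 and without doxycycline. DDX54, a nucleolar helicase also known as a partner of nuclear receptors, had 39 (27.7 to 53.3) at day 5 and 18 (10.7 to 28.4) without doxycycline. These 4 genes were the strongest of the role.

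DDX47 had 10 fragments at day 5 and 10 without doxycycline (4.80 to 18.4 each), and DDX27 had 8 and 8 (3.45 to 15.8 each). Both are rRNA processing factors, and their peaks lay in the weaker part of each list, at ranks 5455 and 4692 at day 5 and 2215 and 2677 without doxycycline. DHX33 (13 fragments), DDX56 (11), DDX18 (8) and DDX55 (8) had a peak only at day 5. For DHX33 this rests on the limit of 1 kb, since without doxycycline a peak lay 1.39 kb from the gene. These 4 intervals reached from 3.45 to 22.2 fragments. DDX10, DDX24, DDX49, DDX51, DDX52 and DHX37 had no peak at an end in either library, although all 6 act in ribosome assembly in human or yeast cells. The nearest peak lay 5.96 kb from DHX37 at day 5 and 6.14 kb without doxycycline, and 715 kb and 518 kb from DDX24.

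Among the 11 splicing helicases, 7 had a peak at day 5 (63.6%, 30.8 to 89.1), beside 27.5% of all genes, and 2 without doxycycline. The count without doxycycline (18.2%) is near the 14.5% of all genes. DDX42, which works with the SF3b part of the U2 snRNP, had 116 fragments (95.9 to 139) at day 5 and 74 (58.1 to 92.9) without doxycycline. It ranked 2 of 6718 at day 5 and 7 of 3468 without doxycycline. At day 5 the peak lay at chr17:63773615-63774302 and without doxycycline at chr17:63773664-63774196. It had the most fragments of any member in both libraries. DDX11 was next at day 5, with an interval below that of DDX42, and without doxycycline DDX11 and DDX21 were next, with intervals that overlap that of DDX42. DHX38, the relative of yeast Prp16 that acts in the second step of splicing, had 10 and 10 fragments (4.80 to 18.4 each) at day 5 and without doxycycline.

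The other splicing helicases with a peak had it only at day 5, with 8 to 15 fragments. DHX8, the relative of yeast Prp22, had 15 (8.40 to 24.7), at the far end of the gene and 177 bp from an end of ETV4. DHX15, the relative of Prp43 that takes spliceosomes apart, had 13 (6.92 to 22.2). DDX41 and DHX35, found in late spliceosomes, had 11 each (5.49 to 19.7), and DDX46, the relative of Prp5, had 8 (3.45 to 15.8). DDX23, DDX39B, DHX16 and DHX40 had no peak in either library. DDX39B and DHX16 lie on chromosome 6 between 28 and 34 Mb, the region of the major histocompatibility complex, which hg38 also holds as alternate sequences. That stretch of the chromosome carried 23 peaks at day 5 and 7 without doxycycline, while alternate sequences of chromosome 6 carried 90 and 30. Peaks on alternate sequences were not assigned to genes.

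**Figure D2:**
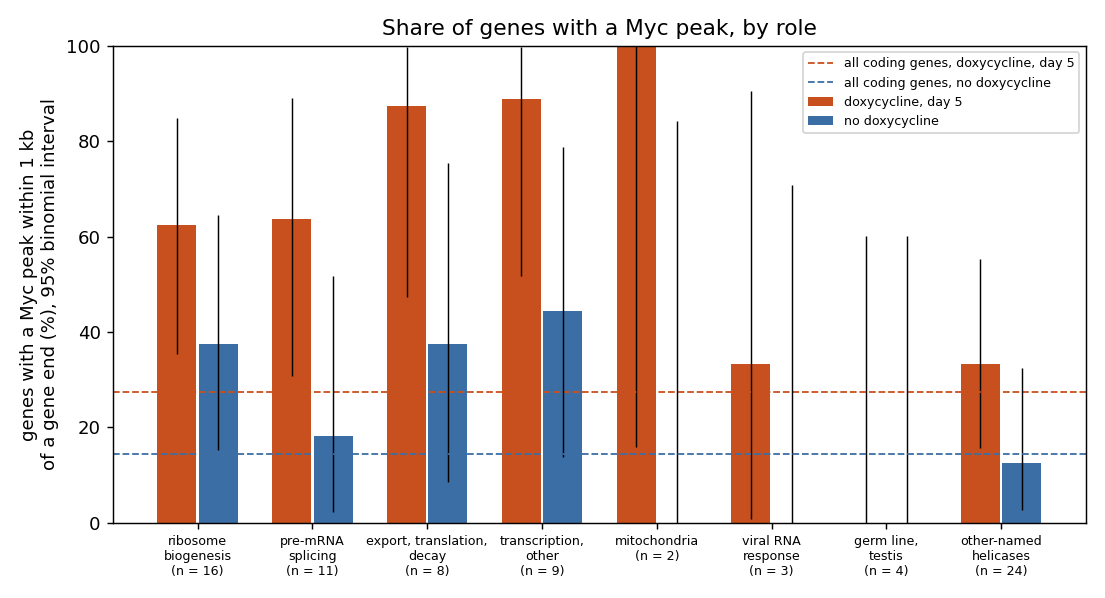
Share of genes marked by a Myc peak at an end (1 kb), by role, at day 5 of doxycycline (left bars) and without doxycycline (right bars); error bars are exact binomial 95% intervals and dashed lines give all protein-coding genes, at 27.5% and 14.5%. At day 5 the germ line group is at 0, and the viral RNA group, at 1 of 3 genes (33.3%, 0.840 to 90.6), is near the line. The other role groups stand above it. The intervals of all groups of 2 to 4 genes hold the line.

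Helicases of mRNA export, translation and decay had a peak in 7 of 8 cases at day 5 (87.5%, 47.3 to 99.7), beside 27.5% of all genes. Without doxycycline 3 of 8 had one (37.5%), with an interval (8.52 to 75.5) that holds the 14.5% of all genes. DDX3X, which helps ribosomes load onto structured mRNAs, had 44 fragments (32.0 to 59.1) at day 5 and 31 (21.1 to 44.0) without doxycycline. DDX39A, an mRNA export helicase and paralog of DDX39B, had 31 (21.1 to 44.0) at day 5 and 18 (10.7 to 28.4) without doxycycline. DHX29, which aids scanning of the small ribosomal subunit, had 12 (6.20 to 21.0) and 11 (5.49 to 19.7). The intervals of each pair overlap.

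DDX19B, which releases mRNA at the nuclear pore, had 20 fragments (12.2 to 30.9) only at day 5, and its neighbour and paralog DDX19A, 11597 bp away, had no peak in either library. The summit of that peak fell on the end base of AARS1, the alanyl-tRNA synthetase, and 261 bp from DDX19B. DHX34, a factor of nonsense-mediated decay, had 14 (7.65 to 23.5) only at day 5. DDX6, a helicase of mRNA decay and P-bodies, had 10 (4.80 to 18.4), and DHX36, which resolves G-quadruplexes, had 6 (2.20 to 13.1), the fewest of any member with a peak.

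The group with transcription and other roles had 8 of 9 genes with a peak at day 5 (88.9%, 51.8 to 99.7), beside 27.5% of all genes. Without doxycycline 4 of 9 had one (44.4%), with an interval (13.7 to 78.8) that holds the 14.5% of all genes. DDX11, a DNA helicase of sister chromatid cohesion, had 69 fragments (53.7 to 87.3) at day 5 and 48 (35.4 to 63.6) without doxycycline, at ranks 46 and 55. Its near-identical pseudogene DDX12P on the same chromosome also had a peak, with 47 fragments (34.5 to 62.5) at day 5 and 31 (21.1 to 44.0) without doxycycline. How reads that match both copies were placed is not given in the sources used here, so the values of DDX11 are uncertain. DDX5, a coactivator and microRNA processing factor, had 43 (31.1 to 57.9) at day 5 and 22 (13.8 to 33.3) without doxycycline. Its paralog DDX17 had 7 (2.81 to 14.4) at day 5 and no peak without doxycycline. DDX59 had 28 (18.6 to 40.5) at day 5 and 18 (10.7 to 28.4) without doxycycline. DHX9, RNA helicase A, had 20 (12.2 to 30.9) and 17 (9.90 to 27.2). DDX1, a part of the tRNA ligase complex, and DDX20, a part of the SMN complex that builds snRNPs, had 15 each (8.40 to 24.7) only at day 5. DHX57 had 14 (7.65 to 23.5) only at day 5, and DHX32 had none in either library.

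Both mitochondrial members, DDX28 with 11 fragments (5.49 to 19.7) and DHX30 with 9 (4.12 to 17.1), had a peak only at day 5. They help assemble the mitochondrial ribosome. With 2 genes the exact interval at day 5 (15.8 to 100%) holds the 27.5% of all genes. Of the 3 helicases of the viral RNA response, DHX58, known as LGP2, had 18 (10.7 to 28.4) only at day 5, at a peak it shares with KAT2A. DDX60 and DDX60L, which lie side by side on chromosome 4, had none, and the nearest peak was over 1 Mb away. None of the 4 germ line and testis genes, DDX4 (the human VASA), DDX25, DDX43 and DDX53, had a peak at an end. A count of 0 of 4 allows a share of up to 60.2% by the exact interval.

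At all 15 members with a peak in both libraries the day 5 peak overlapped the peak without doxycycline, and the summits lay 17 to 496 bp apart (median 183). Both peaks had to come within 1 kb of an end of the gene. The matching values over all genes are not given here. Members with a peak only at day 5 had a median of 11 fragments, against 31 at day 5 for those in both lists. Over all genes these medians were 10 and 18. Without doxycycline the 15 members had a median of 18 fragments, and the 2579 genes in both lists had 12. The best peak ranked in the upper 10% of its list for 8 of 35 members at day 5, beside 12.8% of all genes with a peak, and for 5 of 15 without doxycycline, beside 12.1%. Fewer than 10 fragments lay under 7 of the 35 peaks at day 5 (31.3% over all genes) and 1 of the 15 without doxycycline (39%). The members' best peaks were 355 to 1393 bp wide at day 5 (median 802, all peaks 580). Without doxycycline they were 405 to 1259 bp wide (median 772, all peaks 509). The medians of all peaks also take in peaks away from gene ends, so the sets compared in width are unlike.

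Summit fragments were more numerous at day 5 at 11 of the 15 genes and equal at 4, which were DDX21, DDX27, DDX47 and DHX38. Over all genes in both lists they were more numerous at 81.5%, equal at 5.58% and fewer at 13.0%, so the members' share with more (73.3%) is near that of all genes. The median ratio of day 5 over no doxycycline was 1.44, and over the 2579 genes in both lists it was 1.43. Counting intervals of the ratio lay above 1 for 3 of 15 members, beside 13.5% of all genes in both lists, and below 1 for none, beside 0.155%. The 3 were DDX54 (2.17, 1.21 to 4.02), DDX5 (1.95, 1.14 to 3.43) and DDX42 (1.57, 1.16 to 2.13). Fragments were not scaled for the depth of the libraries, so a ratio of 1 need not mark equal binding. The deposited fold enrichment at the summit was 8.27 at day 5 and 6.63 without doxycycline for DDX54. It was 9.98 and 7.49 for DDX5, and 16.1 and 16.3 for DDX42. DDX21 stood at 1.00 (0.656 to 1.52). The interval of every one of the 15 holds 1.43, so no member was set apart from the shift of all genes at this depth.

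**Figure D3:**
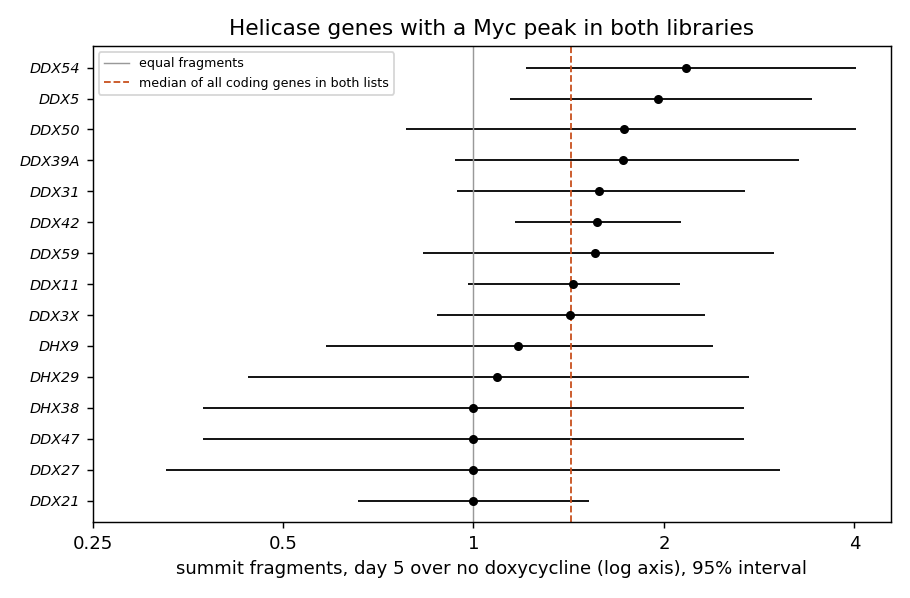
Ratio of summit fragments at day 5 over no doxycycline (log axis) for the 15 helicase genes with a peak in both libraries; bars are exact 95% intervals that cover counting error only. Fragments are not scaled for library depth. The dashed line at 1.43, the median over all genes in both lists, crosses every interval, and the lowest 4 genes stand at 1.00.

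Most member peaks sat at gene starts. Only peaks within 1 kb of a gene end were counted, and matching distances over all genes are not given here. The start in the RefSeq promoter table was known for 32 of the 35 members with a day 5 peak, and the summit lay within 1 kb of it in 30 and within 500 bp in 28. The exceptions were DHX8, whose peak is at the far end, and DDX19B, whose start in that table lies 5010 bp inside the span. Without doxycycline all 15 lay within 1 kb and 14 within 500 bp. Summits fell on both sides, upstream in 18 and downstream in 14 of 32 at day 5, and upstream in 7 and downstream in 8 of 15 without doxycycline. The extremes within 1 kb were DDX47, 605 bp upstream, and DDX6, 685 bp downstream, both at day 5. In DDX59 and DDX50 the day 5 summit was upstream (371 and 244 bp) and the summit without doxycycline downstream (125 and 223 bp).

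**Figure D4:**
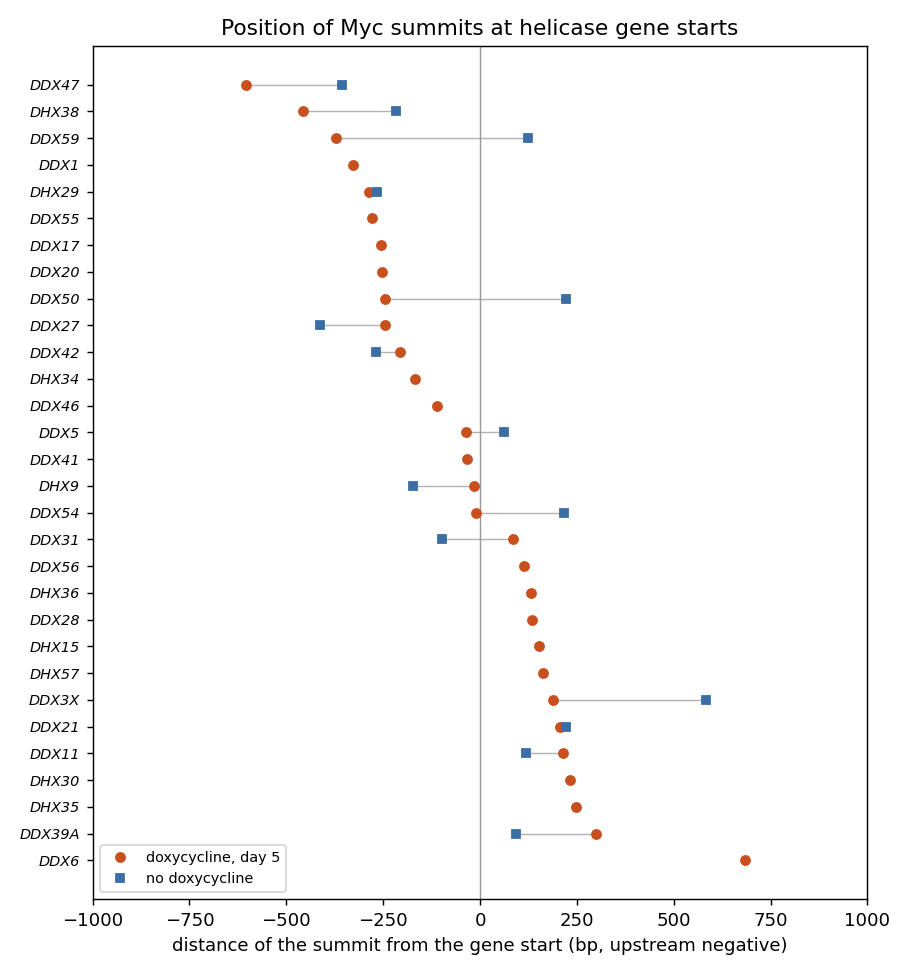
Distance of the Myc summit from the gene start in bp, upstream negative, for the 30 helicase genes with a day 5 summit within 1 kb of the start; circles are day 5 of doxycycline, squares no doxycycline, and lines join both summits of a gene. Most summits lie within 500 bp on either side, and the 2 summits of a gene are up to 496 bp apart.

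Many of these peaks lie between neighbouring genes and cannot be given to 1 of them. At day 5, 13 of the 35 peaks were also within 1 kb of an end of another protein-coding gene. Without doxycycline 7 of 15 were, and the matching shares over all genes are not given here. The neighbours were CCDC47 beside DDX42, CEP95 beside DDX5, GTF3C4 beside DDX31, RITA1 beside DDX54, TXNL4B beside DHX38, STAU1 beside DDX27 and MTREX beside DHX29 in both libraries. At day 5 only they were INKA2 beside DDX20, DUS2 beside DDX28, AARS1 beside DDX19B, KAT2A beside DHX58, ETV4 beside DHX8 and MORN2 beside DHX57. The summit was nearest to the helicase gene itself in 29 of 35 cases at day 5 and 11 of 15 without doxycycline. Over all genes, 22.3% had a nearest summit at day 5 and 11.5% without doxycycline, where 27.5% and 14.5% had any peak. By the ends of the gene spans, the nearer end at day 5 belonged to the neighbour for DDX5, DDX19B, DDX20, DDX27, DHX8 and DHX29. For DDX5 the span reaches 228 bp beyond the start in the promoter table. From that start the DDX5 summit lay 36 bp away at day 5 and 63 bp without doxycycline. CEP95 was farther, at 88 and 187 bp. DDX5 had a second day 5 peak beyond its far end, with 10 fragments, 235 bp from POLG2.

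Helicase genes often have close neighbours. Another coding gene end was within 1 kb for 27 of 53 members (50.9%), beside 28.6% of all genes. Genes with such a neighbour had a day 5 peak more often over the whole genome, 44.8% against 20.5% without one. Among members the day 5 counts were 17 of 27 with a neighbour (63.0%) and 18 of 26 without (69.2%). Without doxycycline they were 8 of 27 (29.6%) and 7 of 26 (26.9%), where all genes gave 25.2% and 10.2%. Of the 35 members with a day 5 peak, 17 had such a neighbour, beside 2560 of 5485 over all genes. Of the 15 with a peak without doxycycline, 8 had one, beside 1440 of 2893.

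Of 24 RNA helicases and relatives under other symbols, 8 (33.3%, 15.6 to 55.3) had a peak at day 5 and 3 (12.5%, 2.66 to 32.4) without doxycycline, near the 27.5% and 14.5% of all genes. Present in both lists were EIF4A1, EIF4A2 and MTREX. EIF4A1, the helicase of translation initiation, had 31 fragments (21.1 to 44.0) at day 5 and 17 (9.90 to 27.2) without doxycycline, and its paralog EIF4A2 had 13 (6.92 to 22.2) and 9 (4.12 to 17.1). MTREX, the helicase of the nuclear exosome, shares its peak with DHX29. The summit was nearer to MTREX, at 8 bp at day 5 and 29 bp without doxycycline, than to DHX29, at 287 and 266 bp. ZNFX1 (59 fragments), SNRNP200 (16), DICER1 (15), IGHMBP2 (12) and EIF4A3 (7) had a peak only at day 5. The sensors of viral RNA RIGI and IFIH1 had none in either library, like DDX60 and DDX60L. The difference between this list and the DDX and DHX genes was not tested.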

How the data were processed

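Myc CUT&Tag peaks of 2 libraries, grouped by their titles, were used. The tools named are MACS2, Bowtie2, Trim Galore and deepTools, and the build is hg38, per the submitters' processing notes. The sources used here give no versions or settings and do not say whether IgG entered the calls. The authors deposited for each peak a score, a fold enrichment ratio at the summit, and −log10 of the p-value and of the q-value, with peaks called per library. Apart from the folds quoted for DDX54, DDX5 and DDX42, these values served only to rank peaks within a list (−log10 q) and to recover fragments.

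The number of fragments over the summit was solved from the fold, with 1 added to fragments and background, and from the p-value as a Poisson tail. All peaks on chromosomes 1 to 22 and X gave one within 0.001 in −log10 p. Any PCR duplicates are counted as fragments if the authors kept them. The recovery and the assignment of peaks to genes were tested on simulated data. Gene spans, starts and promoter bases came from RefSeq on GRCh38.p14. Intervals are exact (Clopper-Pearson, Poisson, or conditional binomial for ratios) at 95%, from scipy 1.17.1 in python 3.11.15. With 1 library per condition no test was made. A gene with several peaks is given by the one with the highest −log10 q.

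The helicases, role groups, related helicases and motifs were chosen with earlier results of these data known. All members are named, with values for each one that has a peak. Planned reading of protein motifs was not made, as no protein sequences were used here. Alternatives were the better-ranked part of each list, equal numbers of peaks, windows of 500 and 2500 bp, summits in place of peak edges, the gene start alone, and only peaks nearest to the gene.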

Additional observations from a re-analysis of the deposited data

Results flagged for a closer look

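Outside the chromosomes used for the comparisons, alternate sequences of chromosome 6 carried 90 peaks at day 5 and 30 without doxycycline. They were looked at because DDX39B and DHX16, which had no peak, lie in a region that hg38 also holds as alternate sequences. Whether any of these peaks belongs to a copy of a helicase gene was not tested.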

How the results depend on the processing

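The number of members with a peak depended on how many peaks were taken. It was 35 at day 5, and 20 both with equal numbers of peaks and with the stronger part of each list (15.8% and 15.4% of all genes), by the construction of these settings. Members listed only at day 5 were 9 in place of 20 in both settings (5.59% and 8.48% of all genes). Members listed only without doxycycline were 4 with equal numbers and 1, DHX29, with the stronger part of each list, in place of 0 (4.32% and 1.15% of all genes). Members without doxycycline ranged from 11 to 16 over all settings (20.8% to 31.25% of members, beside 8.04% to 16.0% of all genes). Windows of 500 and 2500 bp, summits within 1 kb, gene starts alone (48 members) and peaks nearest to the gene left 29 to 35 members at day 5. These were 54.7% to 66.0% of members, beside 22.3% to 29.7% of all genes. In both libraries the share of members was above that of all genes in each setting. No paired analysis was possible because each condition had 1 library. Single peaks rest on 6 to 116 fragments, so ratios between libraries are known only within wide intervals.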

Other observations

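A few Myc peaks lay inside helicase genes, more than 1 kb from either end. DDX47 had 1 in both libraries, 6849 bp after the start at day 5 and 6703 bp without doxycycline, with 14 fragments (7.65 to 23.5) and 11 (5.49 to 19.7). These are more than the 10 fragments of its peak near the start in either library, with intervals that overlap. DDX10, which had no peak at its ends, had 1 inside without doxycycline, with 8 fragments (3.45 to 15.8). The testis helicase DDX25 had 1 inside at day 5, with 3 fragments (0.619 to 8.77). Among members without a peak at their ends, DDX19A, DHX16, DHX37 and DHX40 had one within 11 kb of the gene at day 5, at 7.68, 5.59, 5.96 and 11.0 kb.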
